A study of Mus musculus with 22 samples.

Results

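The genes described here encode the proteasome, and they were chosen by name: symbols that start with Psma, Psmb, Psmc, Psmd or Psme followed by a digit, without the immunoproteasome genes Psmb8, Psmb9 and Psmb10 and without pseudogenes. Of 24091 gene rows, 42 matched, and 40 of those reached 1 CPM, a gene's reads scaled to a library of fixed size, in at least 5 libraries. The other matches were Psma8, with 13 reads over all libraries, and Psmb11, with 2 reads, which encode subunits known from testis and thymus. The 40 genes comprised 7 of the alpha ring and 7 of the beta ring of the core, 9 of the cap base, 8 of the cap lid, 3 chaperones of cap assembly and 4 activators. The remaining matches were Psmc3ip, which binds the cap ATPase encoded by Psmc3 and acts in meiotic recombination and is no proteasome subunit, and Psme2b, a close copy of the activator gene Psme2. All 40 entered every comparison below.

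The 22 RNA-seq libraries of transplanted T cells fall into 8 groups by cell type, tissue and treatment. Lethally irradiated WT (wild-type) BALB/c recipients were given splenocytes together with marrow from WT C57BL/6 donors, so all groups share an irradiated host of another strain. Recipients received a monoclonal antibody against IL-2, the growth factor of activated T cells, or control IgG. On day 7, CD8+ and CD4+ T cells of donor origin were isolated by FACS from colon, called gut here, and from spleen. The anti-IL-2 groups held 3 libraries each in CD8 gut, CD4 gut, CD8 spleen and CD4 spleen. The IgG groups held 2 libraries in each gut population and 3 in each spleen population. The labels name 3 batches, 181201, 181212 and 190306, with 1 library of each group per batch, except that batch 181201 had no gut IgG library. The labels do not say how many recipients stand behind a library or whether libraries share recipients, so the p values measure only the spread between these libraries, which may be technical. In such bulk samples, fewer cells of a type and less RNA per cell cannot be told apart.

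The proteasome is the barrel-shaped protease that degrades proteins tagged with ubiquitin. The outer alpha rings of its core gate the entrance and the inner beta rings cut, with the active sites on the subunits encoded by Psmb5, Psmb6 and Psmb7. The cap binds ubiquitin and unfolds the substrate with a ring of ATPases. In lymphocytes and in cells exposed to interferon, the inducible subunits encoded by Psmb8, Psmb9 and Psmb10 can take the place of the standard catalytic ones, and the activator formed by the products of Psme1 and Psme2 serves peptide production for antigen presentation. Genes of the core and cap are often transcribed together, and NRF1, encoded by Nfe2l1, is a known activator of the set.

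Promoter sequence from RefSeq, on build GRCm38.p6, was at hand for 34 of the 40 genes, as the 250 bases before and 50 bases after the start site. Psmb1, Psmb2, Psmb7, Psmc3, Psmd3 and Psmd7 had no entry. Both strands were searched for the antioxidant response element core TGACNNNGC, which NRF1 and NRF2 bind, and for the core of the interferon-stimulated response element, GAAANNGAA. Stretches of 250 bases before the start site are printed, with matches to either motif in capitals, because Psmb5 and Psmb6 encode catalytic subunits, Psmd9 held both motifs and Psmd4 was higher in gut in both cell types below.
Psmb5, chr14:54617996-54618245, minus strand: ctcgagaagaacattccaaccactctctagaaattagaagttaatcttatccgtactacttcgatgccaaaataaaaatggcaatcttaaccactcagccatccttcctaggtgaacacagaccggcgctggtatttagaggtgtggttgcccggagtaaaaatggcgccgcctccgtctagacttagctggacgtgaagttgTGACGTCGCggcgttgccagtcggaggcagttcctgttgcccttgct
Psmb6, chr11:70525107-70525356, plus strand: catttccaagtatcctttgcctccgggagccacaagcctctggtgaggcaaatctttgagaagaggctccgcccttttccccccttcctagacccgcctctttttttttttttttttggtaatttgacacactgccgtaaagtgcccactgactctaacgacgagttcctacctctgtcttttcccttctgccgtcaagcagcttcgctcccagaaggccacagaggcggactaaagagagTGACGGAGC
Psmd9, chr5:123227940-123228189, plus strand: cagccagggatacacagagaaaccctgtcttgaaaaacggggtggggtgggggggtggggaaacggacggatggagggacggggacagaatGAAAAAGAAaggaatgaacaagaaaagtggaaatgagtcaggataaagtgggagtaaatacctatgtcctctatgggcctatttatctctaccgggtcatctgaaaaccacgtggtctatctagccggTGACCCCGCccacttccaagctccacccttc
Psmd4, chr3:95042615-95042864, minus strand: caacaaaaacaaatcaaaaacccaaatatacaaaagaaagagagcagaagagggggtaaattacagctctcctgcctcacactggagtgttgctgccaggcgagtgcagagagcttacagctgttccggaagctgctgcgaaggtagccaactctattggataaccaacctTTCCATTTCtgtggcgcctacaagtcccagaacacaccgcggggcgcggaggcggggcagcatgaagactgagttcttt
The first base of the TGACNNNGC match lay 47 bases before the start site in Psmb5, 9 in Psmb6 and 31 in Psmd9. The printed matches do not overlap each other. A gene was counted if any of its promoter windows held the motif. TGACNNNGC was present in 6 of 34 genes (17.6%), namely Psmb5, Psmb6, Psmc6, Psmd12, Psmd9 and Psme4, against 14% of 27025 genes with windows of the same length. GAAANNGAA was present in 6 of 34 (17.6%), namely Psmb3, Psmb4, Psmc2, Psmd4, Psmd9 and Psme1, against 9.76% of all. The pair of STAT half-sites TTCNNNGAA was in 1 of 34 (2.94%), namely Psmd2, against 9.55% of all. The E-box CACGTG was in 3 of 34 (8.82%) against 8.09%, and CCAAT in 13 of 34 (38.2%) against 41.1%. Both strands were searched for all 5 motifs, and a match is a description of these letters, not a bound site.

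Total counts per library ran from 14628806 to 24518362. The libraries carried the marker genes of their labelled cell type: the sum of Cd8a and Cd8b1 was 1738 to 3244 CPM in CD8 libraries and 8.65 to 15.5 CPM in CD4 libraries, and 3 CD4 markers summed to 72.5 to 124 CPM in CD8 libraries and 2219 to 3098 CPM in CD4 libraries. The 4 B cell markers summed to 6.11 to 18.7 CPM in CD8 libraries and 1.29 to 3.46 CPM in CD4 libraries. The libraries of batch 190306 went against their treatment labels. Il2ra, which encodes a chain of the IL-2 receptor and is induced by IL-2, gave log2 differences, labelled anti-IL-2 minus labelled IgG, of 1.56 to 1.83 in the 4 pairs of batch 190306 and of -2.05 to -1.11 in the 6 pairs of the other batches. Socs2, another target of IL-2 signalling, gave 2.65 to 4.64 in batch 190306 and -3.77 to -1.89 in the others, and Cish, another, gave 0.80 to 1.33 and -1.75 to -0.53. Treatment is therefore given below as labelled, for batches 181201 and 181212 alone and for all 3 batches. Gut libraries carried more RNA of 6 epithelial markers, which summed to 18.0 to 97.9 CPM in gut and 5.87 to 11.3 CPM in spleen, where up to 2 of them were at 0 in a group. The 10 macrophage markers summed to 15.3 to 99.1 CPM in gut and 13.7 to 174 CPM in spleen. Sums of 4 markers each of fat, pancreas and fibroblasts reached 25.6, 28.8 and 15.2 CPM in gut anti-IL-2 libraries, 1.02, 2.26 and 2.15 CPM in gut IgG libraries and 0.307, 1.81 and 1.29 CPM in spleen.

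Per kilobase of exon, levels ranged widely within each role while the medians of the main roles were alike. The median of the 14 core genes was 36.2 CPM per kilobase as the mean of 22 libraries, that of the 9 base genes 45.9 (20.6 to 74.6) and that of the 8 lid genes 33.4 (6.98 to 69.6). Psma6, of the alpha ring, was highest among the core genes at 105.6 and Psma3, of the same ring, lowest at 3.23. Reads of Psma3 can be shared with 3 pseudogene copies of at least 95% identity over at least 200 bases, and the same holds for Psmb3 with 3 such copies, Psma5 and Psmc1 with 2, and Psma4, Psmb5, Psmd11 and Psmd2 with 1, so these levels are uncertain. Psmb5 also shares 12.1% of its exon bases with Mir686 on the same strand. Among activators, Psme1 had 99.7 CPM per kilobase, Psme3 69.7, Psme4 17.0 and Psme2 15.9. Psme2b had 193 CPM per kilobase, and its transcript matched that of Psme2 at 99.37% identity over 794 bases, so reads of the pair can be split between them by the counting. The chaperone genes stood at 19.7 for Psmd10, 5.91 for Psmd5 and 3.89 for Psmd9.

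**Figure D1:**
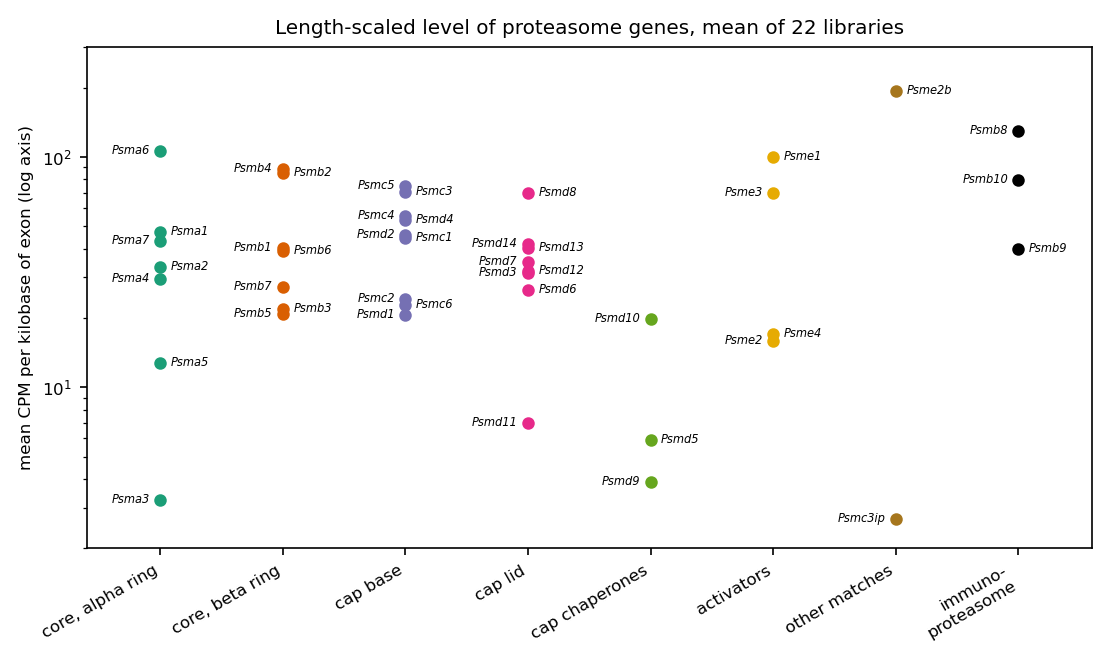
Mean level of each gene over 22 libraries in CPM per kilobase of exon (log axis), by role, 1 point per gene, with the 3 immunoproteasome genes on the right. Core genes centre on 36.2 with Psma3 at 3.23, and Psmb8 stands above Psmb5 at 129 against 20.8.

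Of the inducible catalytic genes, Psmb8 and Psmb10 stood above their standard counterparts in every library. Per kilobase, Psmb8 averaged 129 CPM, above Psmb5 at 20.8, and the log2 ratio of Psmb8 to Psmb5 ran from 2.42 to 2.99 over the 22 libraries. The log2 ratio of Psmb10 to Psmb7 ran from 1.13 to 1.94. The ratio of Psmb9 to Psmb6 per kilobase was near 1, with log2 values of -0.29 to 0.27. These ratios depend on the exon length used, which was 3660 bases for Psmb9 and 1872 for Psmb6. Before length scaling, group means of Psmb9 were 131 to 162 CPM, against a mean of 73.2 CPM for Psmb6. The level of Psmb5 is uncertain, as stated above, and so is its ratio. Between libraries the proteasome genes varied little: the highest library exceeded the lowest 1.18 times for the lid gene Psmd7, 1.22 times for the ATPase gene Psmc5, 1.87 times for Psmb6 and Psme4, 2.26 times for Psma3 and 4.10 times for the low gene Psmc3ip.

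CD8 T cells carried more proteasome RNA than CD4 T cells in both tissues. Without Psmc3ip and Psme2b, the other 38 genes summed to 4344 ± 174 CPM in CD8 libraries and 3853 ± 184 CPM in CD4 libraries (mean ± SD, n = 11 each), with ranges of 4045 to 4595 and 3515 to 4235 that overlap. The core genes summed to 1411 ± 70.0 CPM in CD8 libraries and 1228 ± 61.2 CPM in CD4 libraries. The base and lid genes of the cap summed to 2222 ± 118 CPM in CD8 libraries and 1944 ± 131 CPM in CD4 libraries. The quasi-likelihood test of edgeR, fitted over all genes with batch and labelled treatment as blocks, called 28 of 40 genes higher in CD8 cells in spleen, against a background of 29.2% of 12841 genes called higher, and 2 lower, against 28.9%. In gut it called 25 of 40 higher, against 23.1% of all genes, and 2 lower, against 22.9%. The median log2 fold change of the 40 genes was 0.18 in spleen and 0.14 in gut, while that of all genes was -0.01 in spleen and 0.01 in gut. A set of 23 of the 40 genes was called higher in both tissues, as were 19.3% of all genes. These 23 are 82.1% of the spleen calls and 92.0% of the gut calls. Of all genes, 2477 were called higher in both, out of 3747 called higher in spleen and 2971 in gut. B cell marker RNA was higher in CD8 libraries too, and its part was not tested.

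The difference spanned core, base and lid. In spleen, 4 of 7 alpha ring genes, 6 of 7 beta ring genes, 7 of 9 base genes and 6 of 8 lid genes were higher in CD8 cells. In gut the counts were 4 of 7, 7 of 7, 4 of 9 and 7 of 8. Of all genes, 29.2% were called higher in spleen and 23.1% in gut, and each role holds few genes. No core or cap subunit gene was called lower in either tissue. The chaperone genes Psmd9 and Psmd10 were higher in both tissues, and Psmd5 was not called in either, at -0.03 in spleen and 0.00 in gut. Between paired libraries of the same batch, tissue and treatment label, 32 to 37 of the 40 genes were higher in the CD8 library, while 46.6% to 51.9% of all genes were. In all 11 such pairs, 24 genes were higher in CD8 cells, as were 19% of all genes, and 2 genes, Psme2 and Psme2b, were lower, as were 19%.

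The lid gene Psmd14 encodes the enzyme that cuts ubiquitin chains off the substrate. In gut it had 140.3, 136 and 119 CPM in the CD8 anti-IL-2 libraries and 131 and 116 CPM in the CD8 IgG libraries, against 107, 112 and 102 CPM in the CD4 anti-IL-2 libraries and 114 and 92.9 CPM in the CD4 IgG libraries. All 5 CD8 gut libraries stood above all 5 CD4 gut libraries. In spleen it had 135, 140.2 and 132 CPM in CD8 anti-IL-2 and 142, 146 and 120.4 CPM in CD8 IgG libraries, against 98.4, 101 and 98.5 CPM in CD4 anti-IL-2 and 109, 111 and 88.5 CPM in CD4 IgG libraries. The 6 spleen libraries of each cell type did not overlap either, and the batch 190306 library was the lowest in 7 of the 8 groups. Psmd14 was picked for its large called change between these cell types, so the lack of overlap is no separate support. CD8 minus CD4, Psmd14 gave 0.43 ± 0.03 (log2, SE) in spleen (edgeR adjusted p = 7.01e-09) and 0.28 ± 0.04 in gut (edgeR adjusted p = 7.55e-06).

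The lid gene Psmd13 was higher by 0.41 ± 0.04 in spleen and 0.33 ± 0.04 in gut. Psmd1, the scaffold of the base, was higher by 0.37 ± 0.05 in spleen and 0.22 ± 0.05 in gut. Of the catalytic genes, Psmb6, which cuts after acidic residues, was higher by 0.36 ± 0.04 in spleen and 0.28 ± 0.04 in gut, and Psmb7, which cuts after basic residues, by 0.35 ± 0.05 and 0.29 ± 0.05 in the same order. Psmb3, a beta ring gene with no active site, reached 0.32 ± 0.05 in gut. Psmc3ip gave 1.08 ± 0.16 in spleen and 0.97 ± 0.17 in gut at low levels, with means of 6.92 ± 1.40 CPM in CD8 spleen and 3.26 ± 0.65 CPM in CD4 spleen (SD, n = 6 each).

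Psmb5, which cuts after hydrophobic residues and is the main target of proteasome inhibitor drugs, was called higher in CD8 cells in gut and not in spleen. It had 20.1, 18.96 and 24.1 CPM in CD8 gut anti-IL-2 and 17.7 and 21.3 CPM in CD8 gut IgG libraries, against 15.9, 13.8 and 21.4 CPM in CD4 gut anti-IL-2 and 15.1 and 18.3 CPM in CD4 gut IgG libraries. In spleen it had 19.4, 17.7 and 20.5 CPM in CD8 anti-IL-2 and 18.3, 17.3 and 21.97 CPM in CD8 IgG libraries, against 15.5, 15.8 and 21.9 CPM in CD4 anti-IL-2 and 19.2, 18.1 and 18.2 CPM in CD4 IgG libraries. The cell types overlapped in both tissues, and the batch 190306 library was the highest in 7 of the 8 groups. The log2 fold change was 0.28 ± 0.07 in gut (edgeR adjusted p = 0.00362) and 0.09 ± 0.06 in spleen (edgeR adjusted p = 0.242), and the difference between the tissues, 0.19 ± 0.10, was not past the threshold (edgeR adjusted p = 0.274).

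The activator genes split. Psme2 was lower in CD8 cells, by -0.22 ± 0.06 in spleen and -0.30 ± 0.07 in gut, and Psme2b by -0.23 ± 0.04 and -0.20 ± 0.05 in the same order. Because reads may be split within the pair, their sum is also given: it was 173 ± 16.0 CPM in CD8 spleen and 201 ± 6.18 CPM in CD4 spleen (SD, n = 6 each), and 179 ± 16.5 CPM in CD8 gut and 207 ± 12.3 CPM in CD4 gut (SD, n = 5 each). Psme1, whose product pairs with that of Psme2, was not called in either tissue, at 0.02 ± 0.03 in spleen and 0.08 ± 0.04 in gut. Psme3, the nuclear form, was higher in spleen by 0.07 ± 0.03, and so was Psme4, a large activator of another kind, by 0.17 ± 0.04; neither was called in gut, at 0.04 ± 0.03 and 0.05 ± 0.05.

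**Figure D2:**
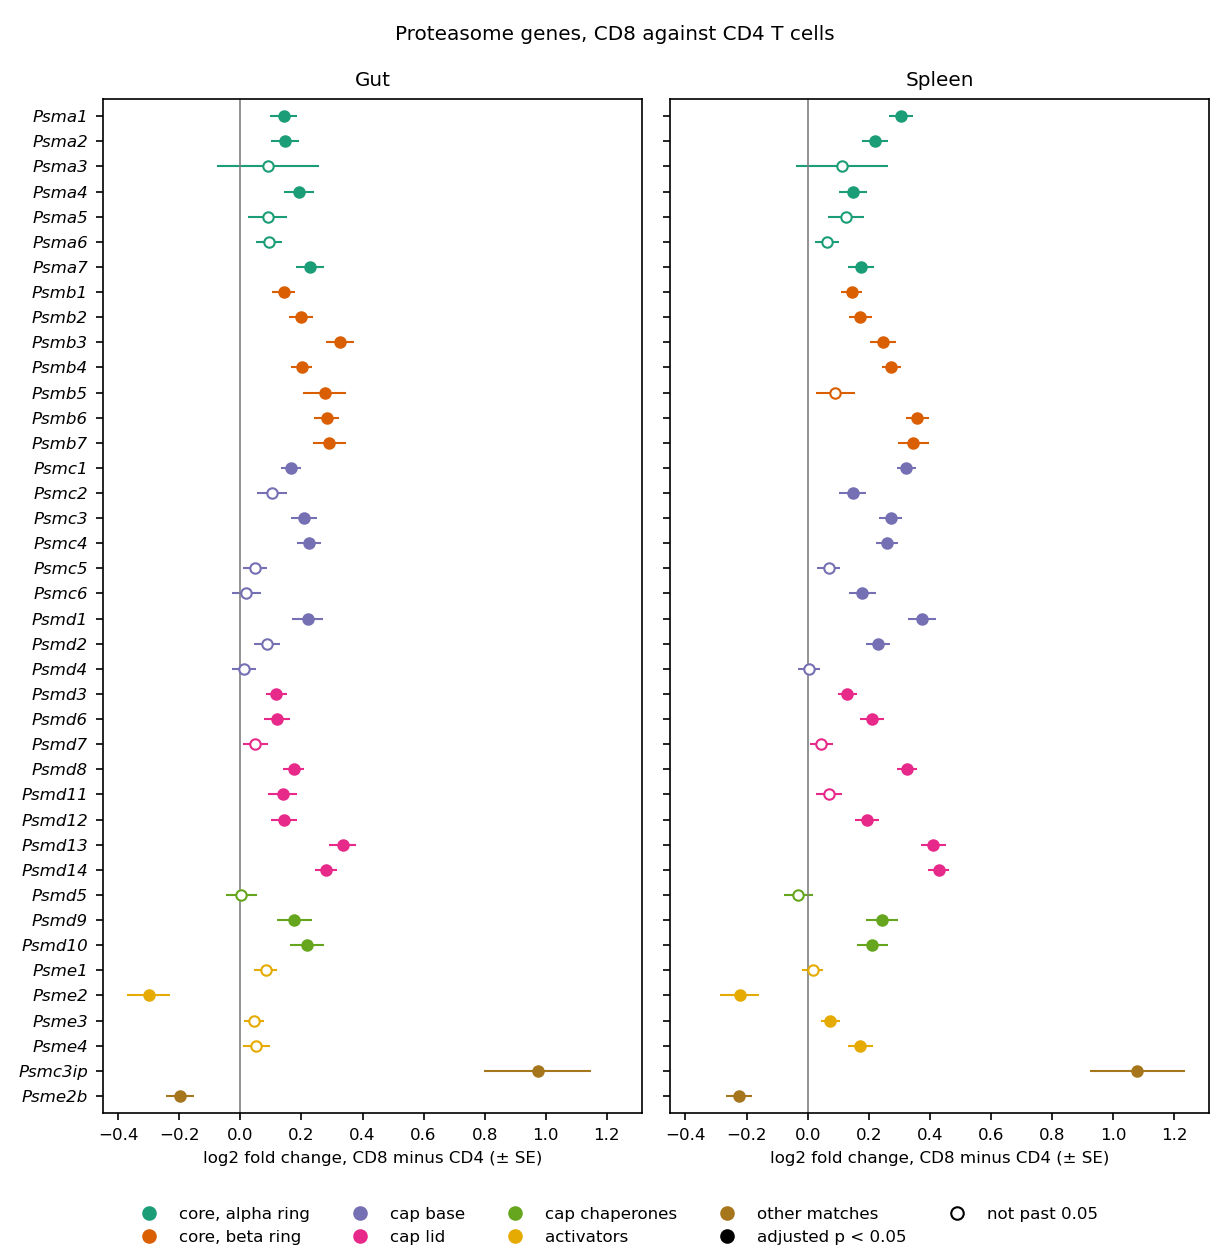
log2 fold change of each of the 40 genes, CD8 minus CD4, with its SE, in gut (left) and spleen (right), by role; filled points are past an adjusted p of 0.05. Nearly all core and cap genes lie right of 0, with Psmd14 at 0.43 in spleen, while Psme2 and Psme2b lie left of 0 in both tissues.

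Genes that work with the proteasome differed between the cell types too. All 3 immunoproteasome genes were higher in CD8 cells in both tissues: Psmb10 by 0.23 ± 0.04 in spleen and 0.26 ± 0.05 in gut, Psmb9 by 0.21 ± 0.04 and 0.15 ± 0.05, and Psmb8 by 0.09 ± 0.03 and 0.10 ± 0.04. Pomp, which encodes the maturation factor of the core, was higher by 0.30 ± 0.05 in spleen and 0.22 ± 0.05 in gut, and Psmg1, another assembly chaperone, was lower by -0.23 ± 0.07 and -0.24 ± 0.08. Nfe2l1 itself was lower in CD8 cells, by -0.31 ± 0.03 in spleen and -0.23 ± 0.04 in gut. Of 8 ubiquitin pathway genes, 2 were higher and 1 lower in spleen and none was called in gut. Among 30 proliferation genes, 30 were higher in CD8 cells in spleen and 29 in gut. Of 84 ribosomal protein genes, 9 were higher and 12 lower in spleen, and 19 higher and 2 lower in gut. Of 25 interferon-stimulated genes, 22 were lower in spleen, and 9 lower and 2 higher in gut. The part of proliferation in the proteasome values was not tested.

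Between tissues, proteasome genes differed in both directions and by less. In CD4 cells, 11 of 40 genes were higher in gut than in spleen, against 26.6% of all genes, and 3 lower, against 22.7%, with a median log2 fold change of 0.07 beside 0.01 for all genes. In CD8 cells, 5 were higher, against 24.8%, and 6 lower, against 23%, with a median of 0.04 beside 0.00 for all genes. The 11 genes higher in CD4 cells are a share near the background, and the other counts are below it. Among CD8 pairs of the same batch and label, 34, 28 and 23 of the 40 genes were higher in gut in the 3 anti-IL-2 pairs, with medians of 0.09, 0.09 and 0.03, and 14 and 16 in the 2 IgG pairs, with medians of -0.08 and -0.04. Among CD4 pairs, 31, 31 and 32 were higher in the anti-IL-2 pairs and 21 and 26 in the IgG pairs. Between 47.0% and 53.3% of all genes were higher in gut in a pair. With libraries scaled by total counts alone, the split became 3 higher and 8 lower in CD4 cells and 3 higher and 9 lower in CD8 cells. Under that scaling, 2308 of all genes were higher and 4316 lower in CD4 cells, and 2645 higher and 3714 lower in CD8 cells. The median of all genes was then -0.09 in CD4 and -0.05 in CD8 cells. With group and batch terms in place of the blocks, 8 genes were called in CD4 cells. Calls over all genes fell too, from 3413 higher and 2916 lower to 2448 higher and 2059 lower.

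Some genes kept their direction under both scalings. Psmd4, a ubiquitin receptor of the cap, was higher in gut by 0.23 ± 0.04 in CD4 and 0.23 ± 0.04 in CD8 cells, and by 0.13 and 0.18 with total counts alone. The ATPase gene Psmc3 was higher by 0.23 ± 0.04 in CD4 and 0.17 ± 0.04 in CD8 cells, and the lid gene Psmd8 by 0.20 ± 0.03 in CD4 cells. Lower in gut were Psma6, by -0.16 ± 0.04 in CD4 and -0.13 ± 0.04 in CD8 cells, the lid gene Psmd11, by -0.13 ± 0.05 in CD4 cells, and in CD8 cells the lid gene Psmd6, by -0.19 ± 0.04, and the base genes Psmd1 and Psmc1, by -0.14 ± 0.05 and -0.14 ± 0.03. Of the 40 genes, 4 were called higher in both cell types, Psmb1, Psmc3, Psmd4 and Psme1, as were 18.6% of all genes. These 4 are 36.4% of the CD4 and 80.0% of the CD8 calls. Of all genes, 2383 were called higher in both, out of 3413 called higher in CD4 and 3189 in CD8 cells. Of the catalytic genes, Psmb5, Psmb6 and Psmb7 were not called in either cell type, with values of -0.10, 0.08 and 0.13 in CD4 cells.

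Psme4 had the lowest tissue value. In CD8 cells it had 129, 146 and 118 CPM in the gut anti-IL-2 and 154 and 113 CPM in the gut IgG libraries, against 155, 174 and 142 CPM in the spleen anti-IL-2 and 185, 192 and 124 CPM in the spleen IgG libraries. In CD4 cells it had 142, 141 and 109 CPM in gut anti-IL-2 and 143 and 103 CPM in gut IgG libraries, against 140.2, 158 and 124 CPM in spleen anti-IL-2 and 159.7, 176 and 105 CPM in spleen IgG libraries. The ranges of gut and spleen overlap across batches, and within batch and treatment label gut was higher in 1 of 10 pairs, CD4 anti-IL-2 of batch 181201. Psme4 was picked for its large called change between tissues, so this count of pairs is no separate support. The log2 fold change was -0.25 ± 0.04 in CD8 (edgeR adjusted p = 0.000178) and -0.13 ± 0.04 in CD4 cells (edgeR adjusted p = 0.0224). Psme3 was lower by -0.09 ± 0.03 in CD8 cells and not called in CD4 cells, at -0.06 ± 0.03, except with total counts alone (-0.16).

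Psme1 ran the other way. It had 243, 239 and 238 CPM in CD8 gut anti-IL-2 and 223 and 271 CPM in CD8 gut IgG libraries, against 229.8, 203 and 198 CPM in CD8 spleen anti-IL-2 and 195, 199 and 226 CPM in CD8 spleen IgG libraries. In CD4 cells it had 226, 225 and 226 CPM in gut anti-IL-2 and 211 and 259 CPM in gut IgG libraries, against 222, 191 and 208 CPM in spleen anti-IL-2 and 188, 196 and 231 CPM in spleen IgG libraries. It was higher in gut in 10 of 10 pairs of the same batch, cell type and treatment label. So were 6 of the 40 genes, counting Psme1, and 15.2% of all genes. The log2 fold change was 0.20 ± 0.04 in CD8 (edgeR adjusted p = 0.000196) and 0.13 ± 0.04 in CD4 cells (edgeR adjusted p = 0.00494), and the CD4 call was lost with total counts alone (0.04, edgeR adjusted p = 0.408). Psme2 was not called, at 0.05 ± 0.07 in CD8 and 0.13 ± 0.07 in CD4 cells.

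**Figure D3:**
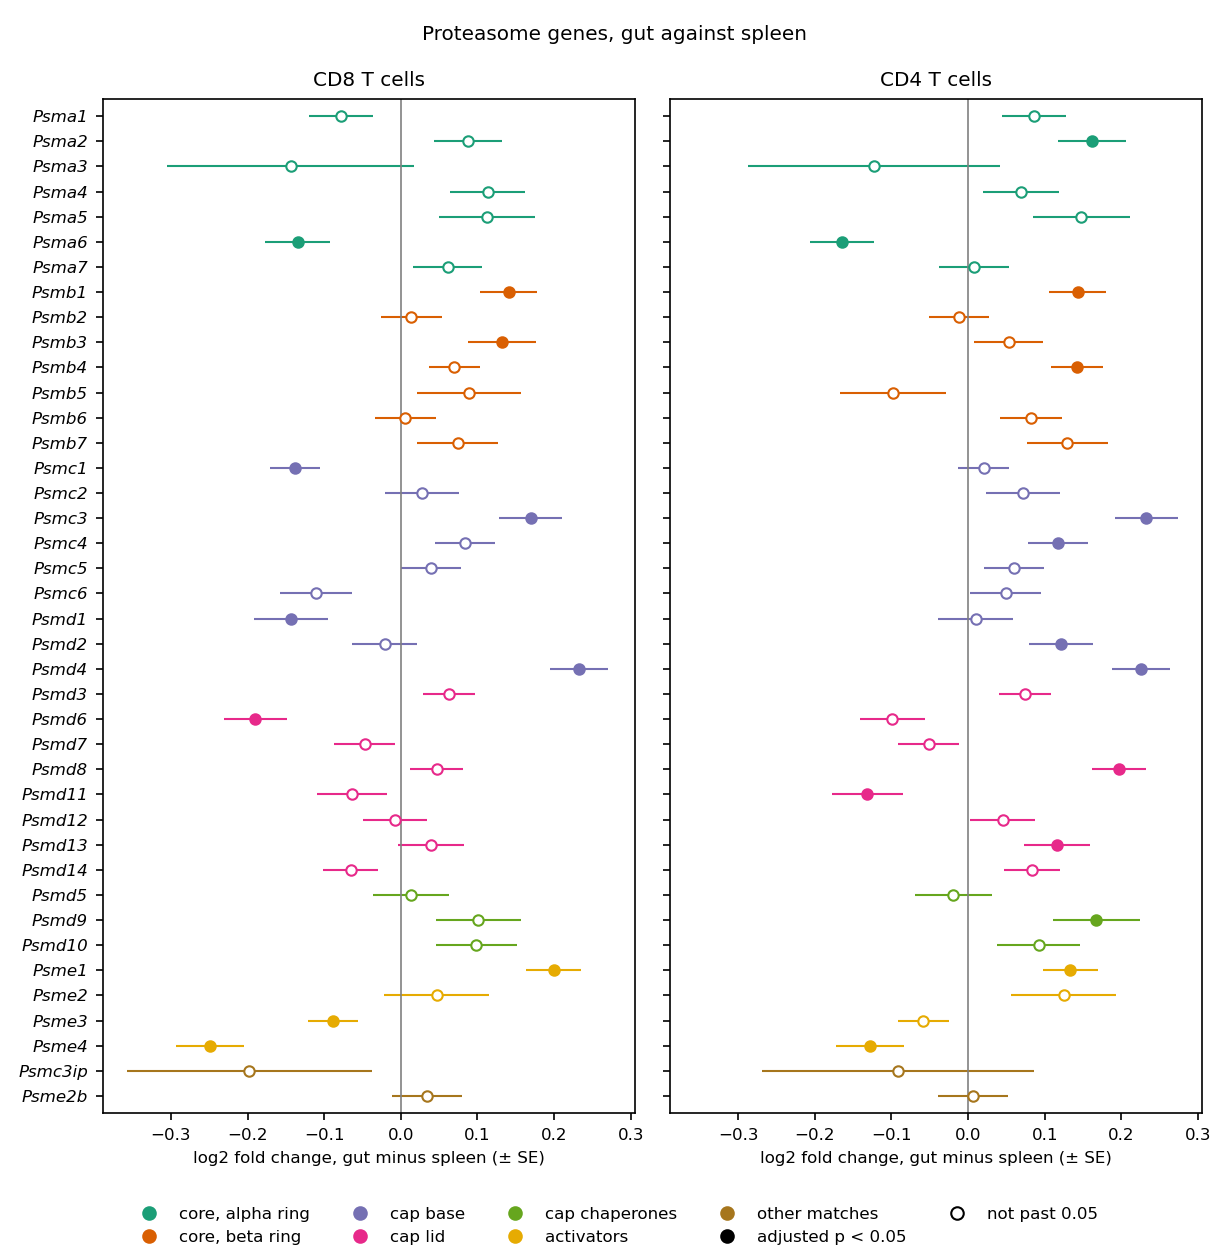
log2 fold change of each of the 40 genes, gut minus spleen, with its SE, in CD8 (left) and CD4 T cells (right), by role; filled points are past an adjusted p of 0.05. Points fall on both sides of 0, with Psme4 at -0.25 in CD8 cells and Psmd4 at 0.23 in both cell types.

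The tissue difference was not shown to depend on cell type for any of the 40 genes. None passed the test of that difference, against 4.65% of all genes. At an unadjusted p under 0.05, edgeR gave 7 of the 40 genes, and the matching count over all genes is not given. DESeq2 called 2 of the 40 genes, and of all genes 409 higher and 553 lower. Leaving out the CD8 gut anti-IL-2 library of batch 181201 gave 5 calls. Psmc1 came nearest, at -0.16 ± 0.05 (edgeR adjusted p = 0.0540), as CD8 minus CD4. Beside the tissue values, Psmb8 was higher in gut by 0.14 ± 0.04 in CD8 and 0.13 ± 0.04 in CD4 cells, Psmb10 by 0.29 ± 0.05 and 0.27 ± 0.05, and Nfe2l1 by 0.25 ± 0.04 and 0.17 ± 0.04. For Psmb9 only group means, not matched for batch, are given. In CD8 cells they were 162 CPM in gut and 155 in spleen under anti-IL-2, and 146 and 152 under IgG. In CD4 cells they were 141 and 136 under anti-IL-2, and 140 and 131 under IgG. Proliferation genes were lower in gut in 24 of 30 cases in CD8 cells and in none in CD4 cells, where 1 was higher. Ribosomal protein genes were higher in 36 of 84 cases and lower in 3 in CD8 cells, and higher in 12 and lower in 4 in CD4 cells. Of the 6 epithelial markers, 5 were higher in gut in each cell type. The part of these, and of the epithelial, fat, pancreas and fibroblast RNA in gut libraries, was not tested.

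Blocking IL-2 went with few called changes of proteasome genes in batches 181201 and 181212. In CD4 spleen, none of 40 genes was higher, against 9.8% of 13073 genes, and 1 was lower, against 10.3%. In CD8 spleen none was higher, against 6.06%, and 3 were lower, against 6.08%. In CD4 gut none was higher, against 6.04%, or lower, against 5.68%, with 4 at an unadjusted p under 0.05 by edgeR and none called by DESeq2. In CD8 gut 1 was higher, against 5.51%, and 1 lower, against 5.22%. Each gut population had a single IgG library in these batches, which was assumed to vary like the other groups, so the gut counts cannot be set beside the spleen counts. Counts over all genes at an unadjusted p, or by DESeq2, are not given for CD4 gut. Fat, pancreas and fibroblast markers moved with gut treatment, and their part was not tested. Median log2 fold changes of the 40 genes were -0.08 in CD4 spleen, -0.08 in CD8 spleen, -0.03 in CD4 gut and 0.08 in CD8 gut, with those of all genes between -0.00 and 0.01. In CD4 gut, the median turned to 0.01 with libraries scaled by total counts alone. The absolute values were under 0.2 for 36, 35, 35 and 36 of the 40 genes, in the order CD4 spleen, CD8 spleen, CD4 gut and CD8 gut.

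Psmd13 was the gene most often called. In CD4 spleen it had 103 and 95.96 CPM in the anti-IL-2 libraries of batches 181201 and 181212, against 125 and 127 CPM in the IgG libraries. In CD8 spleen it had 139 and 128 CPM in the anti-IL-2 libraries, against 172 and 157 CPM in the IgG libraries. The groups did not overlap in either population, and the fall was -0.33 ± 0.07 in CD4 spleen (edgeR adjusted p = 0.00412) and -0.32 ± 0.07 in CD8 spleen (edgeR adjusted p = 0.00925). Psmd13 was picked for its large called change in these data, so the lack of overlap is no separate support. In gut it had 118 and 107 CPM in CD4 anti-IL-2 libraries against 128 CPM in the IgG library, and 163 and 133 CPM in CD8 anti-IL-2 libraries against 153 CPM in the IgG library. Those values, -0.25 ± 0.09 in CD4 gut and -0.12 ± 0.09 in CD8 gut, were not past the threshold. The CD4 spleen call was lost without the IgG library of batch 181212 (edgeR adjusted p = 0.0644), and all 3 calls in CD8 spleen were lost without any 1 of its 4 libraries.

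The other calls in CD8 spleen were Psmc3, lower by -0.25 ± 0.06 (edgeR adjusted p = 0.0237), and Psme4, lower by -0.21 ± 0.06 (edgeR adjusted p = 0.0429). In CD8 gut, Psma3 was higher by 0.83 ± 0.22 (edgeR adjusted p = 0.0290), with 15.0 and 14.4 CPM in the anti-IL-2 libraries and 8.12 CPM in the single IgG library, whose own spread is unknown, and Psmd9 was lower by -0.35 ± 0.10 (edgeR adjusted p = 0.0430). Both were lost without either anti-IL-2 library, and by DESeq2. Of the catalytic genes, Psmb5 had -0.24 ± 0.10 in CD4 spleen (edgeR adjusted p = 0.110) and 0.05 ± 0.10 in CD8 spleen, and Psme1 had 0.12 ± 0.07 and 0.13 ± 0.07 in the same order, none of them past the threshold. Psme2 had 0.37 ± 0.15 in CD8 gut and 0.26 ± 0.12 in CD8 spleen (edgeR adjusted p = 0.122 and 0.180), and Psmb6 and Psmb7 had values of -0.19 to 0.07 over the 4 populations, none called.

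Over the same libraries, 27 of 30 proliferation genes were lower under anti-IL-2 in CD4 spleen and 24 in CD8 spleen, while 9 were higher in CD4 gut and 11 in CD8 gut. Of 25 interferon-stimulated genes, 20 were higher in each spleen population, 14 in CD4 gut and 9 in CD8 gut. The immunoproteasome gene Psmb9 was higher under anti-IL-2 in gut, by 0.33 ± 0.09 in CD4 and 0.34 ± 0.09 in CD8 cells. Each value rests on a single IgG library. Treatment values of Psmb9 in spleen, and of Psmb8 and Psmb10, are not given here. The part of interferon was not tested. No proteasome gene passed the test of a difference of the treatment effect between populations: CD8 minus CD4 in spleen, against 0.918% of all genes, gut minus spleen in CD4 cells, against 5.39%, and gut minus spleen in CD8 cells, against 2.39%. The counts at an unadjusted p under 0.05 by edgeR were 0, 1 and 4 in that order, and DESeq2 called none. Median log2 differences were 0.01, 0.04 and 0.15.

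With all 3 batches as labelled, none of the 40 genes and 0% of 12841 genes passed the edgeR test in any of the 4 populations, where batch 190306 runs against the others. At an unadjusted p under 0.05, edgeR gave 0 proteasome genes in CD4 spleen, 0 in CD8 spleen, 0 in CD4 gut and 2 in CD8 gut. Matching counts over all genes are not given. DESeq2 called none of the 40 genes after adjustment, and 0 of all genes in CD4 spleen and CD8 spleen. Of all genes, it called 5 higher and 3 lower in CD4 gut, and 8 higher and 10 lower in CD8 gut. The medians of the 40 genes were -0.04, -0.03, 0.01 and 0.08 in the same order.

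The treatment difference of batch 190306 was set against that of the other batches in each population. In CD4 spleen 9 of 40 genes had a higher difference in batch 190306, against 13.1% of all genes, and none a lower one, against 11.2%. In CD8 spleen the counts were 5, against 9.22%, and 2, against 9.35%. In CD4 gut they were 7, against 11.5%, and 1, against 9.91%. In CD8 gut they were 2, against 7.94%, and none, against 8.72%. With libraries scaled by total counts alone, the split became 3 higher and 2 lower in CD8 spleen and 3 higher and 2 lower in CD4 gut. It became 2 higher and 1 lower in CD8 gut and 7 higher and 0 lower in CD4 spleen. Under that scaling, all genes split into 1036 higher and 1295 lower in CD8 spleen and 1062 and 1563 in CD4 gut. In CD8 gut they split into 760 and 1403, and in CD4 spleen into 1502 and 1572. The counts rest on 1 pair of libraries per population in batch 190306.

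Psmd13 was called in all 4 populations, by 0.55 ± 0.09 in CD4 spleen, 0.50 ± 0.09 in CD8 spleen, 0.50 ± 0.09 in CD4 gut and 0.38 ± 0.09 in CD8 gut. In batch 190306 it had 131 CPM in the library labelled anti-IL-2 against 111 CPM in that labelled IgG in CD4 spleen, 169.9 against 154 in CD8 spleen, 143 against 117 in CD4 gut and 174 against 147 in CD8 gut. Psmc3, the beta ring gene Psmb4 and Psmd9 were each called in 3 populations, and 15 of the 40 genes in at least 1, a share near the 37.3% of all genes that were. All 4 populations were called for 7.51% of all genes. A set of 7 genes, Psmb3, Psmb4, Psmc3, Psmd8, Psmd9, Psmd13 and Psme4, was lower in the library labelled anti-IL-2 in all 6 pairs of the other batches and higher in it in all 4 pairs of batch 190306, as were 7.44% of all genes. Psme1 was higher in 5 of those 6 pairs and in none of the 4, with a called difference of -0.37 ± 0.10 in CD8 spleen. The 40 genes as a whole followed the same pattern in spleen: 5 to 14 of them were higher in the library labelled anti-IL-2 in the 4 spleen pairs of the other batches, and 31 in CD4 and 29 in CD8 spleen of batch 190306. In gut, 36 in CD4 and 35 in CD8 cells were higher in batch 190306, against 16 and 24 in batch 181212. Between 47.4% and 52.9% of all genes were higher in these pairs.

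Leaving out single libraries moved these counts of proteasome genes, for which no matching counts over all genes are given. In CD4 spleen they fell to 5 without the anti-IL-2 library of batch 181201 and to 4 without that of batch 181212. In CD8 spleen they lay between 2 and 4 without any 1 of the 5 libraries left out. In CD4 gut they were 2 without the anti-IL-2 library of batch 181201 and 4 without that of batch 181212, and in CD8 gut 1 without that of batch 181212.

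**Figure D4:**
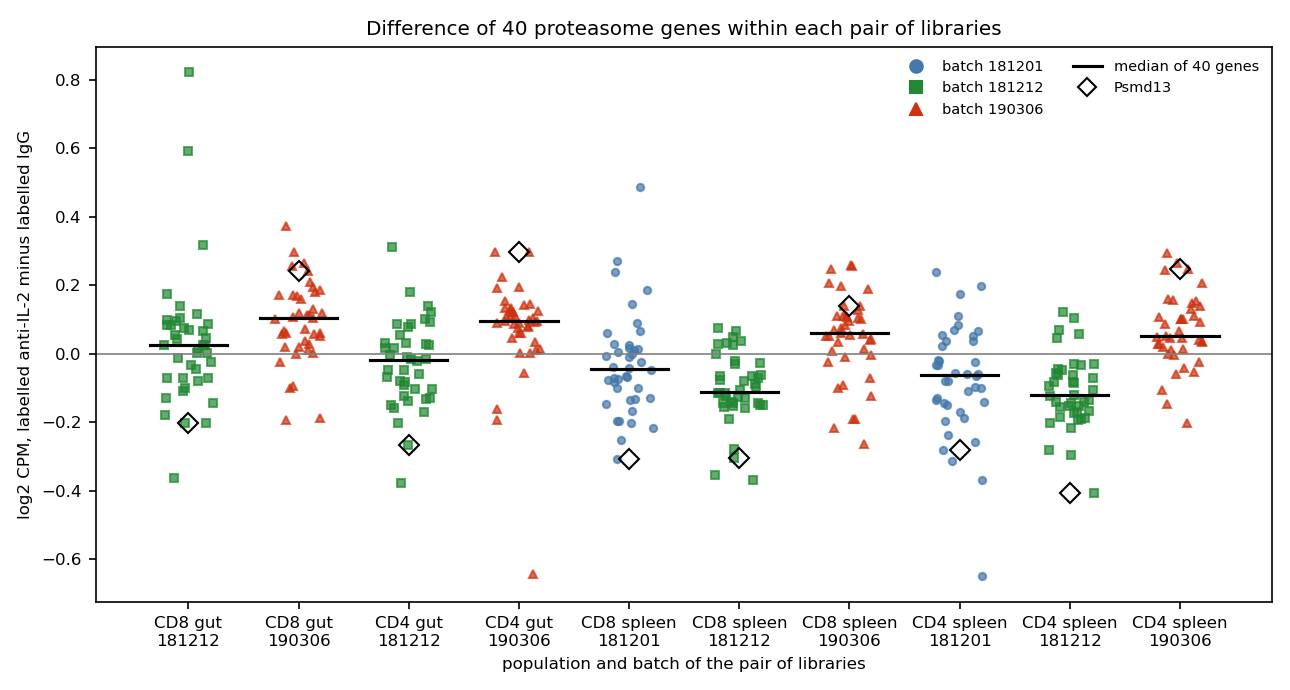
Difference in log2 CPM of each of the 40 genes within each of 10 pairs of libraries, labelled anti-IL-2 minus labelled IgG, 1 column per pair; bars are medians and diamonds mark Psmd13. Psmd13 lies below 0 in all 6 pairs of batches 181201 and 181212 and above 0 in all 4 pairs of batch 190306.

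Batch 190306 also differed in level, in both treatments. Within the 8 groups, its library was higher than the mean of the others in 8 of 8 groups for Psmd3, by 0.46 ± 0.09 log2 units, for Psmb6, by 0.31 ± 0.09, and for Psmd8, by 0.29 ± 0.14 (mean ± SD over groups). It was lower in 8 of 8 groups for Psme4, by -0.41 ± 0.18, and for Psmc6, by -0.31 ± 0.12. Tissue and cell type were compared within batch and treatment label, so these shifts do not enter those values.

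**Figure D5:**
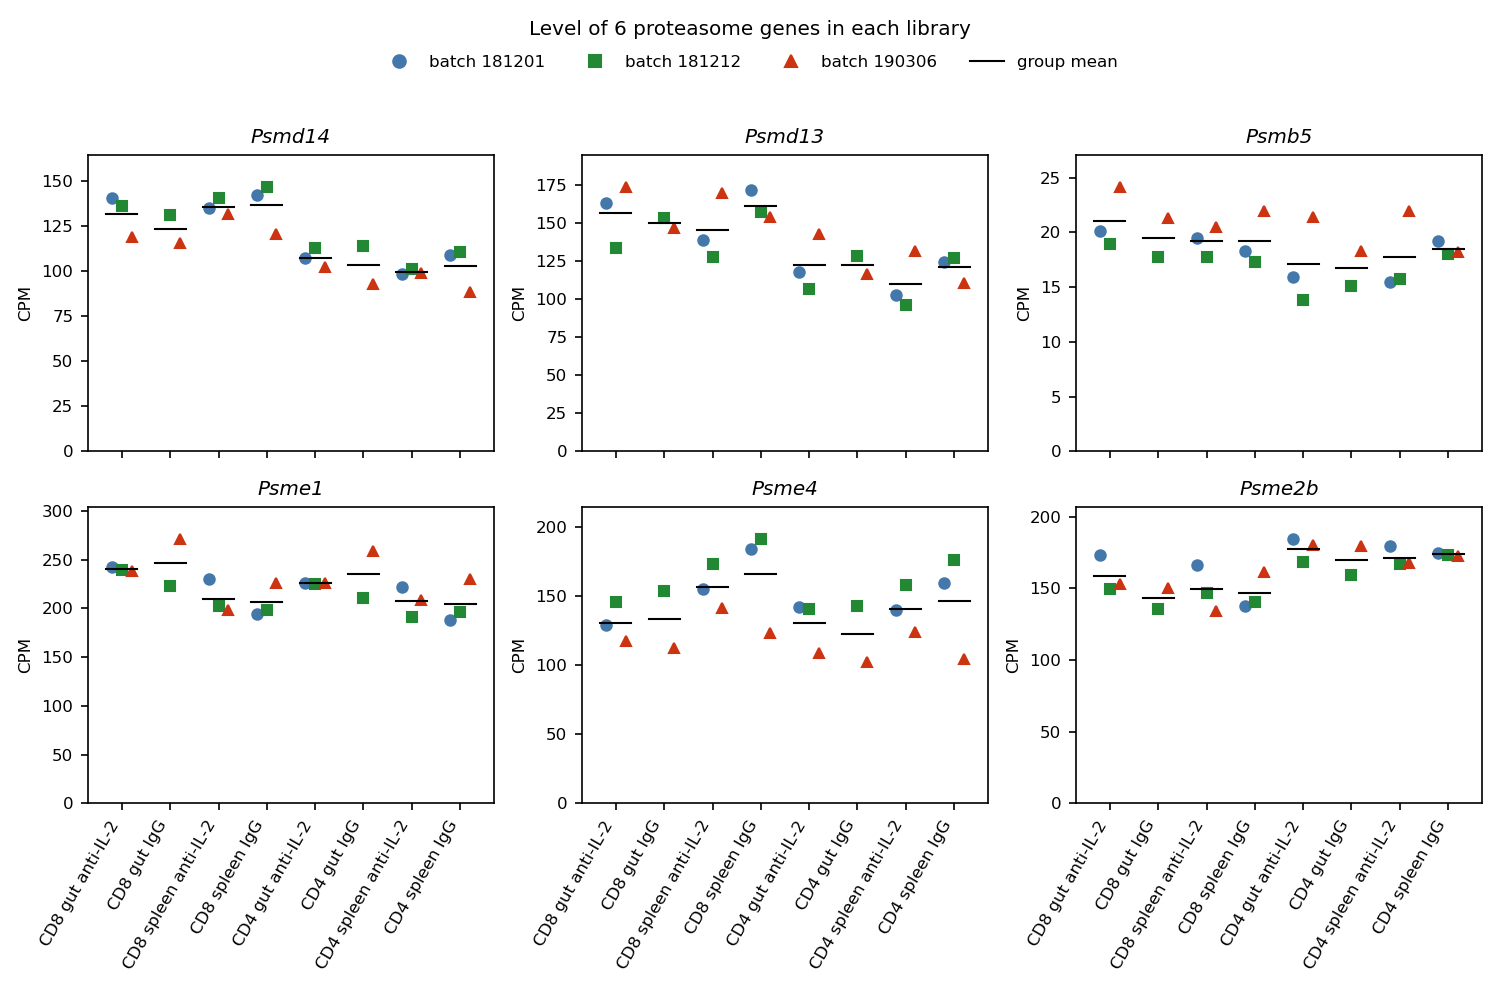
Level in CPM of 6 genes in each of the 22 libraries, by group, with batch as marker and the group mean as a bar; axes start at 0. Psmd14 and Psmd13 stand higher in CD8 than in CD4 groups, Psme2b lower, and Psme4 is lowest in batch 190306 in every group.

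Most of the genes varied together across libraries, less so within cell types, and no matching values were computed for other genes. After the mean of each batch and treatment label was taken off, the correlation of a gene with the mean of the other 39 genes over 22 libraries had a median r of 0.85, and 31 of 40 exceeded 0.5. The libraries share the contrast of cell type and the scaling, and within cell types the median was 0.50, with 20 of 40 over 0.5 and 7 below 0, among them Psma6 (-0.43) and Psme4 (-0.34). Psmd13 (0.98), Psmb6 (0.97) and Psmd14 (0.96) were most like the rest. Psme2b (-0.74), Psme2 (-0.62) and Psmd5 (-0.04) were least like them, and within cell types Psme2b and Psme2 stood at 0.45 and 0.58. At least 1 comparison called 36 of the 40 genes, a share near the 88.3% of all genes, and 4 passed no test: the alpha ring gene Psma5, the ATPase gene Psmc5, the chaperone gene Psmd5 and the lid gene Psmd7.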

How the data were processed

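RNA-seq read counts per gene were deposited by the authors as whole numbers in 1 table of 22 libraries. The submitters' processing notes name TopHat2, HTSeq 0.9.1 and mm10; the annotation, strand setting and filters are not given in the sources used here. The kit was stranded, per the labels' protocols. Groups were taken from source name and characteristics, because the description of the 5 CD8 IgG libraries names the other tissue. The quasi-likelihood test of edgeR 4.0.16 in R 4.3.3 (filterByExpr, TMM, robust) was run on the counts with Benjamini-Hochberg adjustment over all genes tested and a threshold of 0.05. Treatment was fitted with group and batch, for 14 libraries of 2 batches and for 22 of 3 batches. Tissue and cell type were fitted over 22 libraries with 4 populations and 6 sets of batch and treatment. DESeq2 1.42.0 and limma 3.58.1 were alternatives. CPM values are TMM-scaled, with a prior count of 2 on the log2 scale. Exon lengths came from GENCODE M21, with the exons of all transcripts of a gene merged. The fits were run on simulated counts that had no batch effects and larger changes than nearly all those reported here. That run therefore does not test the values above. The genes and lists were chosen with earlier results of these data known. Named genes are the 3 highest and 3 lowest called per comparison, calls against the direction of most, the catalytic genes and the activators; values in every library are given for the largest called change per family of comparisons among genes averaging 5 or more in log2 CPM, for Psmb5 and for Psme1. Psma3 and Psmc3ip details were added after their values were seen. Recipients without PD-L1, named in the series title, were not analysed here.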

Additional observations from a re-analysis of the deposited data

Results flagged for a closer look

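The difference between the libraries labelled anti-IL-2 and IgG differed between batch 190306 and the other batches for 15 of the 40 genes in at least 1 population, a share near the 37.3% of all genes, by edgeR's test of that difference (log2, batch 190306 minus the others). In CD4 spleen the values were 0.39 for Psmb3, 0.30 for Psmb4, 0.33 for Psmb7, 0.37 for Psmc3, 0.55 for Psmd13, 0.24 for Psmd14, 0.26 for Psmd4, 0.34 for Psmd8 and 0.43 for Psmd9. In CD8 spleen they were 0.24 for Psmb4, 0.27 for Psmc1, 0.41 for Psmc3, 0.50 for Psmd13 and 0.33 for Psme4, and -0.37 for Psme1 and -0.32 for Psme2b. In CD4 gut they were 0.41 for Psmb3, 0.26 for Psmb4, 0.36 for Psmc3, 0.50 for Psmd13, 0.25 for Psmd3, 0.29 for Psmd8 and 0.44 for Psmd9, and -1.004 for Psma3. In CD8 gut they were 0.38 for Psmd13 and 0.56 for Psmd9. Each of these groups held 1 library in batch 190306.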

How the results depend on the processing

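Counts of called proteasome genes (of 40) were recomputed with DESeq2, without a low-count filter, with total counts alone, with other model terms (limma voom for the batch 190306 difference only), and without each library in turn. Where a library was left out, matching counts over all genes are not given. CD8 against CD4 gave 29 to 30 calls in spleen and 22 to 28 in gut over the alternatives run for it. The 22 came with group and batch terms, where 2106 of all genes were higher and 1985 lower, against 2971 and 2935 in the main fit. Gut against spleen gave 10 to 16 calls in CD4 and 9 to 13 in CD8 cells when a library was left out. It gave 8 in CD4 cells with group and batch terms in place of sets, where calls over all genes fell too. The test of the tissue difference between cell types gave 0 to 5 calls with a library left out and 2 with DESeq2. Of all genes, DESeq2 called 409 higher and 553 lower in that test. For treatment in batches 181201 and 181212, CD8 gut gave 0 calls with DESeq2 and 1 without the filter, 1 with total counts alone and 1 without the batch block, CD8 spleen gave 0 without the batch block, and with a library left out the counts were 0 in CD8 gut, 0 in CD8 spleen and 0 to 2 in CD4 spleen. For the difference of batch 190306, leaving out a library gave 4 to 10 calls in CD4 spleen, 2 to 4 in CD8 spleen, 2 to 8 in CD4 gut and 1 to 3 in CD8 gut; CD8 spleen gave 3 without the filter and CD4 gut 5 with total counts alone. Of the named gene values none changed sign where called; with a library left out 74 lost and 9 gained a call, and under the other alternatives 35 lost and 7 gained one. Where a library was left out of a group of 2, the lone library was assumed to vary like the others. Calls over all genes moved too. For treatment in CD8 gut, they fell in both directions with DESeq2 and without the batch block. In CD8 spleen, they fell from 792 higher and 795 lower to 601 and 500 without the batch block. For the batch 190306 difference in CD8 spleen, they fell from 1184 higher and 1200 lower to 1019 and 1079 without the filter. The cause of these changes was not tested, except that fewer libraries were fitted where one was left out.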
